A study of Ovis aries with 12 samples.

Results

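Inflammation-linked microRNAs were followed in endothelial cells of the lamb pulmonary artery. They were the entries of a small RNA count table that carry a miR-146a, miR-146b, miR-155, miR-9, miR-132 or miR-212 name once species prefix, arm and copy number are dropped. The rule found 4 of 470 entries: ipu-miR-155, bta-miR-146b, hsa-miR-9-5p and hsa-miR-132-5p. No reads under a miR-146a or miR-212 name, or under the 3p arm of miR-132, were analysed here. The rule uses names only and no measured value. The PPHN group (persistent pulmonary hypertension of the newborn) comprised 6 libraries, numbered 7 to 12, from lambs whose ductus arteriosus was ligated in utero at about 125 days of gestation and kept closed for 5 to 7 days. The control group comprised 6 libraries, numbered 1 to 6, from lambs with sham surgery. In both groups, collagenase was used to free cells from the main pulmonary artery, beads with a CD31 antibody purified them, and they were cultured in serum for 2 to 5 passages, so what was measured is RNA of passaged cells and not of the vessel wall. The labels give no lamb for any library, and p-values therefore measure the spread between these libraries, which may be partly technical.

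These miRNAs are known as a feedback layer of inflammatory signalling. miR-155, processed from its own non-coding host transcript, is induced by Toll-like receptor and cytokine signals and restrains negative regulators such as SOCS1 and SHIP1; in endothelial cells it has been linked to the mRNA of nitric oxide synthase. miR-146a and miR-146b, which share a seed, are induced through NF-κB and related pathways and repress the adaptors IRAK1 and TRAF6, which closes a negative feedback loop. miR-9 is abundant in neural tissue, is also induced by inflammatory signals in human monocytes and neutrophils, and targets NFKB1. miR-132 and miR-212 are made from a shared transcript under the control of CREB, and miR-132 is known to act on p120RasGAP in growing vessels. Its 3p arm is the usual active strand, so the 5p arm counted here is a minor product of that hairpin.

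The libraries held 2250077 to 17740932 counts in PPHN and 4101316 to 11171643 counts in control over the 470 entries. They differed in a defining endothelial miRNA. The abundant entry mmu-miR-126b-3p stood at 195 CPM (counts scaled to a common library total, after TMM) in PPHN 8, 176 CPM in PPHN 11 and 161 CPM in control 2, against 10588 to 98168 CPM in the other 9 libraries. The same 3 libraries held the least of the smooth muscle miRNA oar-miR-143, at 2157 CPM in PPHN 8, 2388 CPM in PPHN 11 and 2210.2 CPM in control 2, against 4310 to 301222 CPM in the others (2 of 5 smooth muscle markers listed had entries). Fibroblast markers, 12 entries for 5 of 5 listed, summed to 2727 to 12425 CPM in PPHN and 6068 to 23235 CPM in control. The part of either list in the results below was not tested. Values without these 3 libraries are given beside the result of each member. In such bulk samples, fewer cells of a type and less RNA per cell cannot be told apart.

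In PPHN cells, miR-155 and miR-9-5p stood lower than in control cells, miR-146b stood higher on average, and miR-132-5p differed little in its mean. With edgeR's quasi-likelihood test, 0 of the 4 were past the threshold of 0.05 after Benjamini-Hochberg adjustment, where the share over all 468 tested entries was 0%. At an unadjusted p under 0.05 the test took 1 of the 4, miR-9-5p, against 10.5% of all tested entries. DESeq2 also called 0 of the 4 after adjustment, where it called 2.58% of all entries, and limma-voom called 0 of the 4 against 0% of all entries. At an unadjusted p under 0.05, DESeq2 had 1 of the 4 (miR-9-5p) against 15.5% of all entries, and limma-voom had 1 of the 4 (miR-155) against 9.4%. The groups overlapped for each of the 4, while they did not overlap for 1.28% of all tested entries. The median log2 fold change of the 4 was -0.33, beside -0.08 over all tested entries. Without regard to direction, the median size was 0.83, beside 0.37 over all tested entries.

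**Figure D1:**
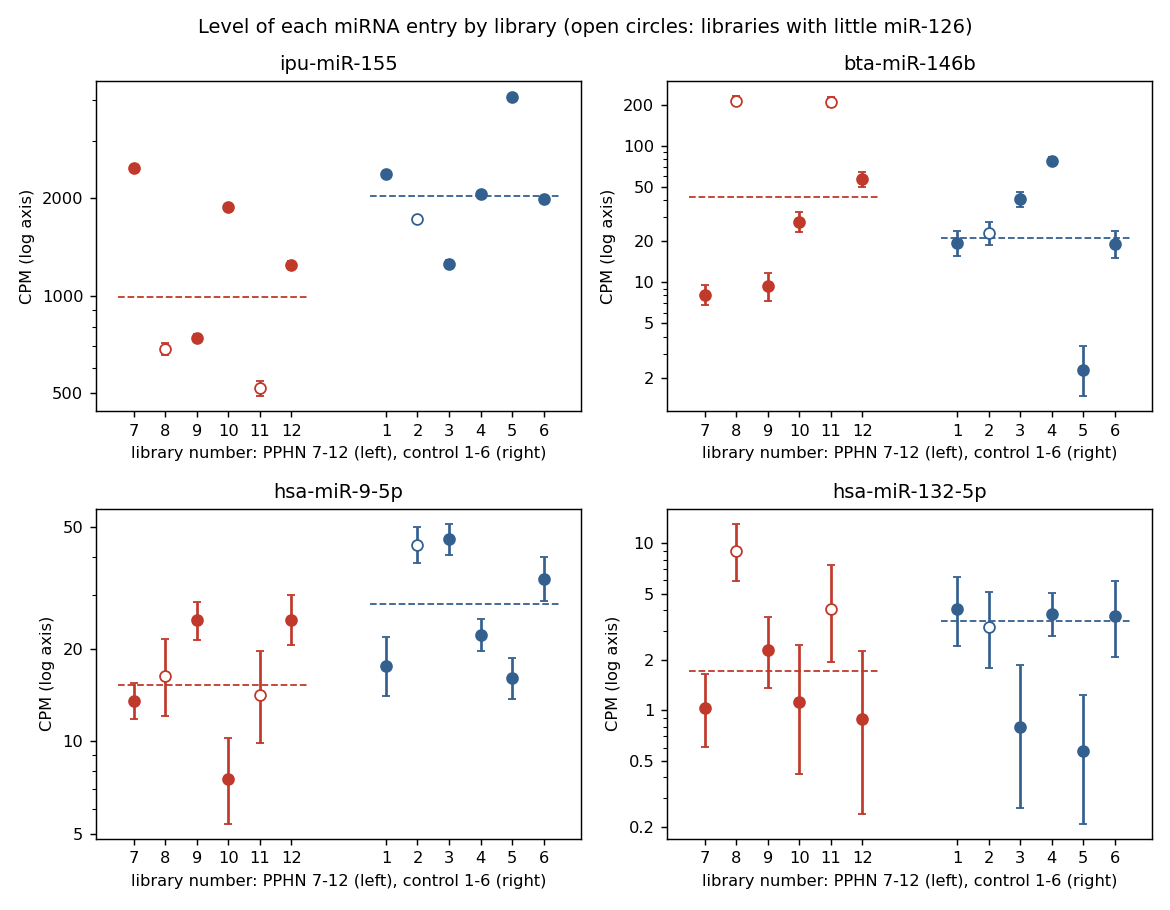
CPM of each of the 4 entries in each library on log axes, PPHN libraries in red and control libraries in blue; vertical bars are exact 95% counting intervals, dashed lines are group medians, and open circles are the libraries with little miR-126. The 2 open PPHN circles, at 215 and 210.3 CPM, are the highest values of bta-miR-146b, and for hsa-miR-9-5p the 6 PPHN libraries lie below the control median of 28.1 CPM.

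The most abundant of these miRNAs was miR-155, which ranked 51st by mean level among the tested entries. It is counted under the single name ipu-miR-155, that of a catfish. The PPHN libraries had a lowest value of 518 CPM (PPHN 11), a median of 990.4 CPM and a highest value of 2472 CPM (PPHN 7). Control libraries had a lowest value of 1255 CPM (control 3), a median of 2023 CPM and a highest value of 4078 CPM (control 5). Low values lay on the PPHN side: PPHN 8, PPHN 9, PPHN 11 and PPHN 12 were below the lowest control, and PPHN 10 lay below the control median. PPHN 7 exceeded 5 of the 6 controls. The mean was 1255 ± 774 CPM in PPHN cells and 2244 ± 972 CPM in control cells (SD, n = 6 each). That is 1.79-fold lower in PPHN, with a log2 fold change of -0.84 (SE 0.41, 95% interval -1.74 to 0.06). The difference did not pass the test (edgeR unadjusted p = 0.0654, Benjamini-Hochberg adjusted p = 0.457 over all tested entries). An exact two-sided permutation test of log2 CPM gave p = 0.0541, with an adjusted p of 0.497.

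How far miR-155 stood below control depended on single libraries, in size but not in direction. Without PPHN 7 the log2 fold change was -1.21 (edgeR unadjusted p = 0.00958, adjusted p = 0.262), and without control 5 it was -0.58 (unadjusted p = 0.174, adjusted p = 0.743). Among the 9 libraries with miR-126, miR-155 averaged 1582 ± 754 CPM in 4 PPHN libraries and 2348 ± 1049 CPM in 5 control libraries, with a log2 fold change of -0.60 (SE 0.42, edgeR adjusted p = 0.846). The lowest levels, 518 and 685 CPM, were those of PPHN 11 and PPHN 8, which hold little miR-126, but control 2, which also holds little, stood at 1723 CPM.

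miR-155 is also a miRNA of activated white blood cells, and the blood cell markers listed were examined. Of the 6 blood cell markers listed, miR-486 and miR-451 had entries, and miR-223, miR-142, miR-144 and miR-150 were not analysed here. Both with entries are red cell miRNAs, so the values below do not cover white blood cells. The summed level of miR-486 and miR-451 was 15.4 to 203.2 CPM in PPHN and 69.0 to 900.4 CPM in control. The entry bta-miR-486, a red cell miRNA, was lowest in PPHN 8 at 15.0 CPM and PPHN 11 at 27.5 CPM, the same libraries in which miR-155 was low. In control 5, which had the most miR-155, it stood at 457 CPM, and in control 6, which had the most miR-486 at 897 CPM, miR-155 stood at 1985 CPM. Their part in the level of miR-155 was not tested.

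miR-9-5p was a low entry at rank 255 by mean level, and its counts were pooled under 52 names with 50 species prefixes, from fly to human. The lowest PPHN value was 7.54 CPM (PPHN 10), the median 15.3 CPM and the highest 25.0 CPM (PPHN 12). The lowest control value was 16.1 CPM (control 5), the median 28.1 CPM and the highest 45.7 CPM (control 3). The 6 PPHN libraries lay below the control median and 3 of them, PPHN 7, PPHN 10 and PPHN 11, below the lowest control. The highest controls were control 3, control 2 at 43.8 CPM and control 6 at 33.9 CPM, so the groups overlapped between 16.1 and 25.0 CPM. The mean was 16.9 ± 6.84 CPM in PPHN cells and 29.9 ± 13.1 CPM in control cells (SD, n = 6 each), or 1.77-fold lower. The log2 fold change was -0.82 (SE 0.37, 95% interval -1.63 to -0.01), with an edgeR unadjusted p of 0.0481 that did not hold after Benjamini-Hochberg adjustment (adjusted p = 0.430). An exact two-sided permutation test gave p = 0.0584 (adjusted p = 0.497).

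The direction of miR-9-5p held under each of the 20 alternative settings, with log2 fold changes from -1.03 to -0.64, and the unadjusted edgeR, DESeq2 or limma-voom p was under 0.05 in 10 of them. Among the 9 libraries with miR-126 it averaged 17.7 ± 8.63 CPM in PPHN (n = 4) and 27.1 ± 12.5 CPM in control (n = 5), with a log2 fold change of -0.64 (SE 0.45, edgeR adjusted p = 0.846). The depth limits single values: PPHN 11 had 35 counts and PPHN 10 had 40, and the exact 95% interval of PPHN 11 was 9.86 to 19.7 CPM. Markers of neural cells, in which miR-9 is best known, overlapped between the groups: their summed level was 86.4 to 138 CPM in PPHN and 76.8 to 140.2 CPM in control, from 4 entries for 2 of the 4 listed miRNAs, with miR-124 and miR-137 not analysed here.

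Among these miRNAs, miR-146b varied most between libraries. PPHN libraries lay between 8.13 CPM (PPHN 7) and 215 CPM (PPHN 8), around a median of 42.3 CPM. Control libraries lay between 2.29 CPM (control 5) and 78.0 CPM (control 4), around a median of 21.1 CPM. PPHN 8 and PPHN 11, at 215 and 210.3 CPM, stood above the other 10 libraries, whereas PPHN 7 and PPHN 9, at 8.13 and 9.34 CPM, stood below 5 of the 6 controls. The PPHN libraries thus spanned a 26.4-fold range and the control libraries a 34.1-fold range. The mean was 87.8 ± 98.1 CPM in PPHN cells and 30.4 ± 26.3 CPM in control cells (SD, n = 6 each). The log2 fold change of 1.53 (SE 0.94, 95% interval -0.51 to 3.57) did not exceed the spread between libraries (edgeR adjusted p = 0.591, exact two-sided permutation p = 0.357 with an adjusted p of 0.837). With limma-voom the log2 fold change was 0.78 (SE 1.04, adjusted p = 0.885). The within-group SD of its log2 CPM was 1.87, at the 86.1 percentile of all tested entries, against 0.74 for miR-155 and 0.64 for miR-9-5p.

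The higher mean of miR-146b in PPHN came with PPHN 8 and PPHN 11. Without these and control 2, the level was 25.5 ± 22.8 CPM in 4 PPHN libraries and 31.8 ± 29.2 CPM in 5 control libraries, and the log2 fold change turned to -0.37 (SE 0.90, edgeR adjusted p = 0.951). Little miR-126 and much miR-146b did not go together in each case, since control 2 held 22.9 CPM of miR-146b. PPHN 8 and PPHN 11 were also the shallowest libraries, at 2655849 and 2250077 counts. With 643 and 520 counts of miR-146b, the exact 95% intervals were 198 to 232 CPM and 193 to 229 CPM. These intervals cover counting error only, and the part of depth in these levels was not tested. Control 5, at the other end, had 24 counts and an interval of 1.46 to 3.40 CPM. Of the epithelial markers, listed with those of the other cell types, oar-miR-200b had an entry. It stood at 398 CPM in control 4, the library that had the most miR-146b among controls. In PPHN, oar-miR-200b stood at 29.5 to 150.4 CPM, highest in PPHN 11 at 150.4 CPM and PPHN 8 at 105 CPM, the libraries with the most miR-146b. PPHN 9 came next at 90.7 CPM, but held only 9.34 CPM of miR-146b. For oar-miR-200b, the other 5 controls lay below the 6 PPHN libraries, at 0 to 4.74 CPM. It was at 0 CPM in control 1 and control 3, where 3 counts would be 0.639 and 0.481 CPM. Yet control 3 held 40.5 CPM of miR-146b, more than any control but control 4. The other 5 epithelial markers listed were not analysed here, and the part of epithelial markers in the level of miR-146b was not tested.

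**Figure D2:**
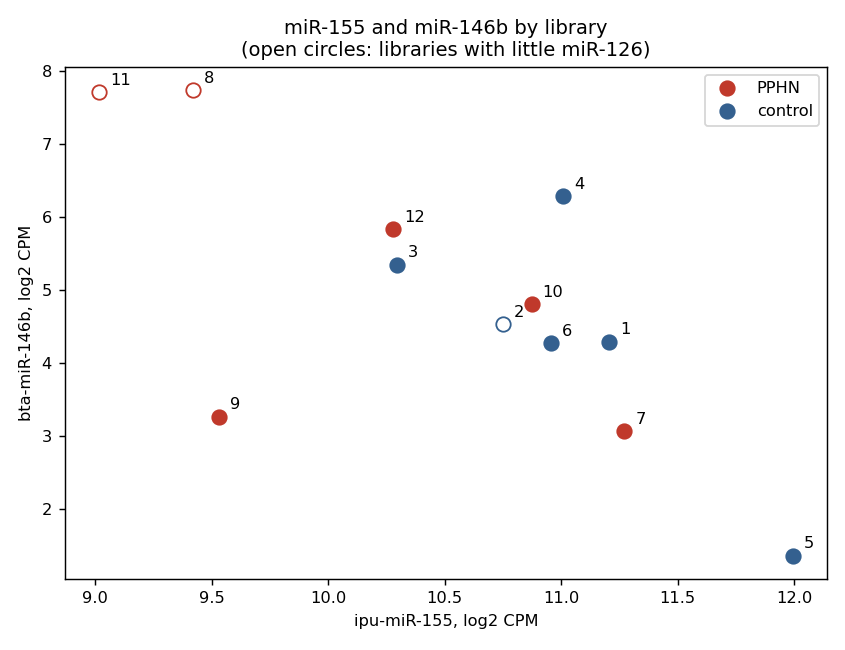
Level of bta-miR-146b against that of ipu-miR-155, both in log2 CPM, in each of the 12 libraries; red points are PPHN, blue points are control, numbers are library numbers and open circles are the libraries with little miR-126. PPHN 8 and PPHN 11 combine high miR-146b with low miR-155, control 5 shows the opposite, and PPHN 9 is low in both.

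miR-132-5p was close to the floor of 3 counts in several libraries, at rank 447 by mean level. It had 4 to 27 counts in the PPHN libraries and 5 to 47 in the control libraries. PPHN libraries lay between 0.884 CPM (PPHN 12) and 9.01 CPM (PPHN 8), around a median of 1.72 CPM. Control libraries lay between 0.571 CPM (control 5) and 4.04 CPM (control 1), around a median of 3.41 CPM. Control 1, control 2, control 4 and control 6 lay together between 3.16 and 4.04 CPM, with control 3 and control 5 under 1 CPM, while the PPHN libraries other than PPHN 8 and PPHN 11 lay between 0.884 and 2.30 CPM. The exact 95% interval was 0.241 to 2.26 CPM in PPHN 12 and 5.94 to 13.1 CPM in PPHN 8. The mean was 3.07 ± 3.15 CPM in PPHN cells and 2.67 ± 1.57 CPM in control cells (SD, n = 6 each), while the medians ran the other way. The log2 fold change of 0.16 (SE 0.69, 95% interval -1.35 to 1.66) gave an edgeR adjusted p of 0.949 and an exact two-sided permutation p of 0.996. Without PPHN 8 it was -0.56 (adjusted p = 0.910), and among the 9 libraries with miR-126 it was -0.97 (SE 0.69, edgeR adjusted p = 0.846), at 1.34 ± 0.652 CPM in PPHN (n = 4) and 2.58 ± 1.73 CPM in control (n = 5). The direction for miR-132-5p was thus not settled at this depth, and a change of up to 3.17-fold higher or down to 0.392-fold lay within the interval.

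**Figure D3:**
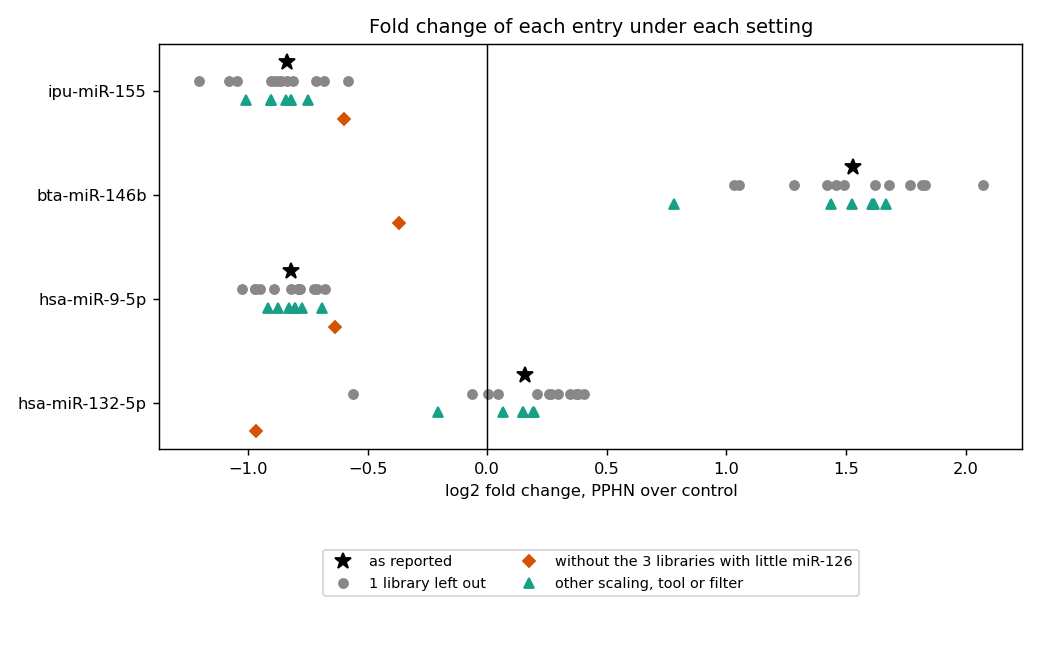
Log2 fold change (PPHN over control, horizontal axis) of each of the 4 entries as reported (stars), with 1 library left out (grey circles), with another scaling, tool or filter (triangles) and with PPHN 8, PPHN 11 and control 2 left out (diamonds). For ipu-miR-155 and hsa-miR-9-5p the points lie below 0, for bta-miR-146b the diamond at -0.37 is the only point below 0, and for hsa-miR-132-5p the points lie on both sides of 0.

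By level the order was miR-155 (mean over the 12 libraries 1750 CPM), miR-146b (59.1 CPM), miR-9-5p (23.4 CPM) and miR-132-5p (2.87 CPM). CPM compares reads of mature miRNAs, which are near one length, but cloning efficiency differs between miRNAs and was not measured. miR-155 lay above miR-146b in 12 of 12 libraries, by 2.46-fold in PPHN 11 to 1784-fold in control 5. miR-146b lay above miR-9-5p in 6 libraries and below it in the other 6, so that these neighbours did not differ beyond their spread. miR-9-5p lay above miR-132-5p in 12 of 12 libraries.

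Ratios between members within a library, which do not depend on the scaling, were compared for the pairs fixed for this purpose that could be formed. The log2 ratio of miR-132-5p to miR-155 was -8.75 ± 1.95 in PPHN and -9.74 ± 1.34 in control, a difference of 0.99 (SD over 6 libraries each). An exact two-sided permutation test gave p = 0.331 (adjusted p = 0.331 over 2 ratios). For miR-9-5p to miR-132-5p it was 2.68 ± 1.27 in PPHN and 3.50 ± 1.21 in control, a difference of -0.82 (exact two-sided permutation p = 0.281, adjusted p = 0.331). Neither difference exceeded the spread between libraries. Among the 9 libraries with miR-126 the differences were 0.03 and -0.08, and without PPHN 8 alone they were 0.48 and -0.45. Without control 5 alone the first was 0.47, and without control 3 alone the second was -0.46. Both ratios contain miR-132-5p, at 4 to 27 counts in PPHN and 5 to 47 in control, so they are not independent of each other.

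Whether the members moved together was examined over the 9 libraries with miR-126 only, because the other 3 stand apart. PPHN and control libraries were pooled without centring by group. These correlations therefore mix any difference between the groups with variation inside them. Between miR-155 and miR-146b, Pearson's r was -0.42 (exact permutation p = 0.258, adjusted p = 0.699) and Spearman's rho -0.45 (exact permutation p = 0.230, adjusted p = 0.673). Without PPHN 9 and control 5, the libraries farthest from the median of miR-155, r was -0.62 over 7 libraries. Between miR-155 and miR-9-5p, r was -0.43 (exact permutation p = 0.247, adjusted p = 0.699) and rho -0.55 (exact permutation p = 0.133, adjusted p = 0.673), with r of -0.52 without the same libraries. For miR-155 and miR-132-5p, r turned from -0.11 to 0.59 without PPHN 9 and control 5. For miR-146b and miR-132-5p, r turned from 0.31 to -0.39 without control 5 and control 4. The remaining pairs kept the sign of r when libraries were left out in this way. Across the 6 pairs of members, adjusted p-values ran from 0.673 to 1, so no pair was shown to move together.

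For each member of at least 10 CPM, the other entries closest to it across libraries were listed. These are the 3 highest Pearson correlations of log2 CPM among all other entries, given as a description over 12 libraries that share the groups and the depth of each library. Values picked as the highest of so many are high by selection. That holds also over the 9 libraries with miR-126, which are part of the same 12. The entries most like miR-155 were hsa-miR-15b-3p (r = 0.90), a minor arm of the cell-cycle miRNA miR-15b, bta-miR-449c (r = 0.85), of a family shared with miR-34, and rno-miR-3557-5p (r = 0.82); over the 9 libraries with miR-126, r was 0.83, 0.68 and 0.82. Of these, rno-miR-3557-5p averaged 3738 ± 2540 CPM in PPHN and 7384 ± 5875 CPM in control, and hsa-miR-15b-3p averaged 14.2 ± 6.61 CPM in PPHN cells and 21.8 ± 8.36 CPM in control cells (SD, n = 6 each).

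The entries most like miR-146b were bta-miR-328 (r = 0.90), hsa-miR-34c-5p (r = 0.85), a miRNA induced by p53, and hsa-miR-532-3p (r = 0.84), and over the 9 libraries r was 0.82, 0.71 and 0.73. Of these, hsa-miR-34c-5p averaged 65.7 ± 44.6 CPM in PPHN cells and 18.7 ± 8.67 CPM in control cells, with a log2 fold change of 1.81 (SE 0.54, edgeR unadjusted p = 0.00607, adjusted p = 0.315), while bta-miR-328 averaged 41.8 ± 19.8 CPM in PPHN cells and 33.7 ± 18.4 CPM in control cells (SD, n = 6 each). For miR-9-5p they were oar-miR-107 (r = 0.81), encoded within a pantothenate kinase gene, oar-miR-26b (r = 0.69) and bta-miR-193a-3p (r = 0.68), with r of 0.79, 0.66 and 0.59 over the 9 libraries. The level of oar-miR-107 was 279.9 ± 44.6 CPM in PPHN cells and 375 ± 101 CPM in control cells (SD, n = 6 each; log2 fold change -0.42, SE 0.21, edgeR adjusted p = 0.457). For oar-miR-26b the log2 fold change was -0.53 (SE 0.12, edgeR unadjusted p = 0.000833), and its adjusted p of 0.190 was the lowest of all tested entries. No such entries were sought for miR-132-5p, whose mean was under 10 CPM in both groups.

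Other miRNAs linked to NF-κB, Toll-like receptor or cytokine signalling were read beside these from a list of 20, of which 14 had a tested entry, with 26 entries in all. With edgeR, 0 of the 26 passed the adjusted threshold, 12 were higher and 14 lower in PPHN, and the median log2 fold change was -0.14, beside -0.08 over all tested entries. At an unadjusted p under 0.05 there were 2 higher, where 4.91% of all tested entries were, and 3 lower, where 5.56% were. In either direction that was 5 of the 26, or 19.2%, against 10.5% of all tested entries. The 3 lower include bta-miR-92a and bfl-miR-92a, near-identical miRNAs that are not separate observations. DESeq2 called 1 of the 26 after adjustment, hsa-miR-125a-5p (log2 fold change 0.74, DESeq2 adjusted p = 0.00313), where it called 2.58% of all entries, so the share is near that over all entries.

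Of this list, miR-125a-5p, which targets the mRNA of the A20 deubiquitinase TNFAIP3, ranged from 4875 to 8152 CPM with a median of 6622 CPM in PPHN, and from 2894 to 5342 CPM with a median of 3961 CPM in control. Its edgeR log2 fold change was 0.71 (SE 0.19, unadjusted p = 0.00313, adjusted p = 0.244), and the groups overlapped between 4875 and 5342 CPM. The miR-125b entries, close relatives, were higher for 3 of 3. Of these, oar-miR-125b and bfl-miR-125b stand for near-identical miRNAs and are not separate observations. Their log2 fold changes were 0.55 each (edgeR unadjusted p = 0.0610 and 0.0533). For rno-miR-125b-2-3p, of the other arm, the log2 fold change was 0.28 (edgeR unadjusted p = 0.670). The other entry higher at an unadjusted p under 0.05, dme-miR-10-3p, belongs to the list only through an invertebrate miR-10a name, and stood at 3.07 to 75.8 CPM in PPHN and 2.18 to 18.5 CPM in control (log2 fold change 1.91, SE 0.86, edgeR adjusted p = 0.430).

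On the lower side stood miR-181b, known to restrain NF-κB import in endothelium through importin-α3, at 321 to 1007 CPM with a median of 717 CPM in PPHN and 638 to 1609.8 CPM with a median of 1097 CPM in control (log2 fold change -0.69, SE 0.29, edgeR adjusted p = 0.430). The 6 miR-92a entries were lower for 6 of 6. They include gga-miR-92-5p, of the other arm (log2 fold change -0.31, SE 0.35, edgeR unadjusted p = 0.399). The others are names of a flow-regulated miRNA that represses KLF2. Because these stand for near-identical miRNAs, they are not separate observations, and 6 of 6 does not count 6 observations. The main entry, bta-miR-92a, stood at 26554 to 44496 CPM in PPHN and 36791 to 73641 CPM in control (log2 fold change -0.53, SE 0.18, edgeR adjusted p = 0.340), and bfl-miR-92a had a log2 fold change of -0.65 (SE 0.26, edgeR adjusted p = 0.430). Among the most abundant of the list, oar-miR-21 had a log2 fold change of 0.34 (SE 0.21, edgeR adjusted p = 0.591) and oar-miR-181a one of -0.34 (SE 0.33, edgeR adjusted p = 0.803).

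**Figure D4:**
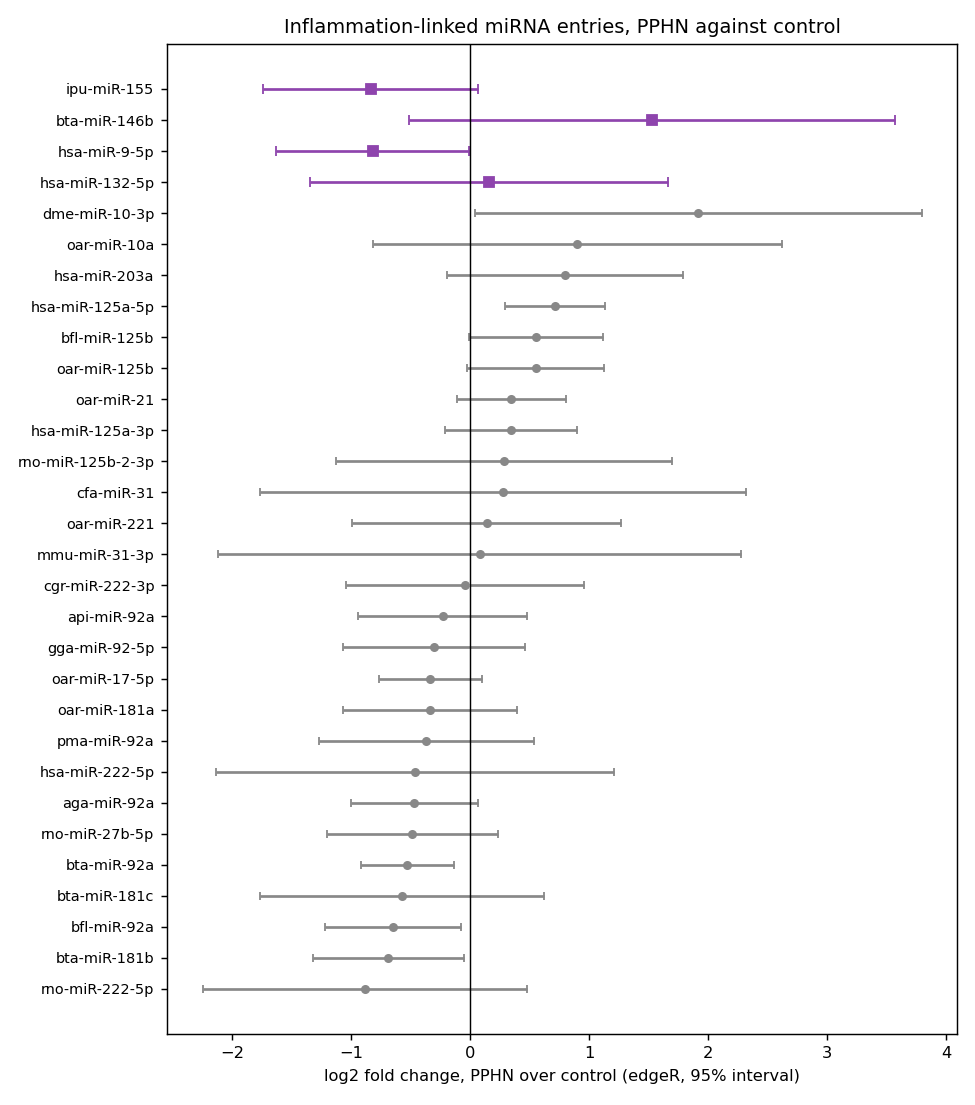
Log2 fold change (PPHN over control, edgeR) with its 95% interval for the 4 entries described here (squares, top) and the 26 entries of other inflammation-linked miRNAs (grey circles), sorted by fold change. The interval of hsa-miR-9-5p ends at -0.01, those of the other 3 squares span 0, and none of the 30 entries passed the adjusted threshold.

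In the authors' deposited table, the edgeR log2 fold changes were -0.84 for miR-155, 1.52 for miR-146b, -0.83 for miR-9-5p and 0.15 for miR-132-5p, with q-values from 0.418 to 0.954. The DESeq2 p-value for miR-9-5p in the authors' deposited table was 0.0301, with a q-value of 0.255 (its header gives no tool, and it stands beside the DESeq2 values). The DESeq q-values in the authors' deposited table were 1 for each of the 4 entries.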

How the data were processed

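Total RNA went into TruSeq libraries of small RNA, as the labels' protocols state. Raw counts of reads for each miRNA entry were deposited, per the file headers, with p-values, q-values and log2 fold changes from DESeq, DESeq2 and edgeR. The submitters' processing notes name Trim Galore 0.2.5 and Bowtie 1.1.1. Not given in the sources used here are their roles, the genome build and the miRNA reference. Entries carry names of many species, so near-identical sequences may share or split reads.

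From the counts, PPHN and control were compared in R 4.3.3 by edgeR 4.0.16 (robust quasi-likelihood test, TMM) on the 468 entries kept by filterByExpr, with Benjamini-Hochberg adjustment over all of them. The common biological coefficient of variation was 0.730. SEs came from the fold change and its F statistic. Log2 CPM used a prior count of 2. Permutation tests covered all 924 assignments of 6 against 6, whose smallest p is 0.00216, and were adjusted over all entries. Counting intervals are Clopper-Pearson; with the floor of 3 counts (0.182 to 1.21 CPM), they cover counting error only. No 2 libraries had counts alike enough to be the same library counted again (lowest chi-square per degree of freedom 364). That does not tell whether 2 libraries came from the same lamb. Alternatives were other scalings, filters, DESeq2 1.42.0, limma-voom (limma 3.58.1) and leaving out libraries.

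Named entries were the 4 members, the 3 entries most like each member of at least 10 CPM, and, of the other list, those at an unadjusted p under 0.05 and the 3 most abundant, with cell type markers. Members and lists were chosen with earlier results of these data known.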

Additional observations from a re-analysis of the deposited data

Results flagged for a closer look

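In 3 of 44 groups of 6 libraries examined, the gap between the most extreme library and its nearest neighbour exceeded the limit of Dixon's test. Chance gives about 5% of groups only where values are normally distributed. Entry levels were examined here as CPM and not on a log scale, so that rate may not hold for them. Whether their gaps would exceed the limit on a log scale was not tested. The log2 ratio of miR-132-5p to miR-155 was -12.3 in control 5 and lay between -10.1 and -8.96 in the other controls. That library has the most miR-155 and only 6 counts of miR-132-5p. The level of hsa-miR-532-3p was 163 CPM in control 4 and lay between 28.8 and 69.8 CPM in the other controls. Control 4 also had the most miR-146b among controls. That is no separate observation, since hsa-miR-532-3p was picked for its correlation with miR-146b. The level of dme-miR-10-3p was 18.5 CPM in control 1 and lay between 2.18 and 6.91 CPM in the other controls.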

How the results depend on the processing

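No paired analysis was run, because the labels give no lamb for any library and any pairing between the groups is unknown. Under RLE, upper-quartile and library-total scaling, other tools and filters, and with libraries left out, 0 of the 4 members passed the adjusted threshold; miR-155 and miR-9-5p kept their direction in 20 of 20 alternatives each, miR-146b in 19 of 20 and miR-132-5p in 15 of 19. Without PPHN 8, PPHN 11 and control 2, the log2 fold change was -0.37 for miR-146b and -0.97 for miR-132-5p, members at an unadjusted p under 0.05 numbered 0, and such entries in all numbered 27. For miR-132-5p it was -0.21 with limma-voom and -0.56 to 0.41 with 1 library left out, and the entry is lost under the filter of 10 CPM. Members at an unadjusted p under 0.05 numbered 2 with library totals only, 0 with the filter of 10 CPM and 0 to 1 with 1 library left out (0 without control 2, control 6, PPHN 8 or PPHN 11). All entries past the adjusted threshold numbered 12 with DESeq2 and 0 to 1 with 1 library left out (1 without PPHN 8), and those at an unadjusted p under 0.05 numbered 32 (without PPHN 11) to 59. Of the other inflammation-linked entries DESeq2 called 1. The cause of these differences was not tested. No 2 entries carry the same member, so no sum was formed. Counts under 50 per library limit miR-132-5p.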
